A study of Homo sapiens with 6 samples.

Results

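The proteasome genes of P493-6 cells were followed over 3 levels of c-Myc. They comprise every gene measured on the array whose symbol is PSMA, PSMB, PSMC, PSMD, PSME, PSMF or PSMG with a number, together with POMP. This gave 46 genes of 18244 named genes, and 44 of them were bright enough to be tested among 12198 tested genes. The 2 untested members were PSMA8, whose best known site of expression is the testis, and PSMB11, the thymic beta subunit. Their mean intensities were 14.4 and 17.8, under the filter of 33.8. PSMC5, PSMD7 and PSMD13 were not analysed here, since no probe set was assigned to them alone. PSMC3IP and PSME3IP1 carry similar symbols but encode partner proteins, and were set apart.

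The P493-6 line, of human B-cell lymphoma, carries a c-Myc transgene that tetracycline represses, and transgene and parental line are common to all groups. Low-Myc cells had been released from repression for 0 hours, mid-Myc cells for 1 hour and high-Myc cells for 24 hours, with 2 arrays in each group. One label of the mid-Myc samples gives 0 hours instead of 1, and the 1 hour label was used because these cells are described as having moderate c-Myc. Total RNA was labelled for 1-colour Affymetrix arrays after ERCC synthetic RNAs had been added in proportion to cell number.

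The 26S proteasome degrades proteins that carry ubiquitin. Its 20S core is a barrel in which outer rings of alpha subunits gate entry and inner rings of beta subunits cut the substrate, and a 19S cap binds ubiquitin, removes it and unfolds the substrate with a ring of ATPases. Interferon signalling replaces the catalytic beta subunits by PSMB8, PSMB9 and PSMB10 and adds the activator PSME1/PSME2, which together form the immunoproteasome that supplies peptides for MHC class I. B cells are known to hold much of it. Dedicated chaperones assemble the core and the cap.

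A promoter stretch is given for 7 members on which the results below turn. Each runs from 150 bases before to 20 bases after the annotated start of the gene in RefSeq (GRCh38.p14), on the strand of the gene. A 300-base window was found for 40 of the 46 members. The first 4 stretches hold the core of an interferon response element in capitals, which is a GAAA, any 2 bases and another GAAA, on either strand. PSMB10 lies on the minus strand at chr16:67936831-67937000, PSME1 on the plus strand at chr14:24136044-24136213, PSME2 on the minus strand at chr14:24146591-24146760 and PSMG4, an assembly chaperone, on the plus strand at chr6:3258797-3258966.
PSMB10: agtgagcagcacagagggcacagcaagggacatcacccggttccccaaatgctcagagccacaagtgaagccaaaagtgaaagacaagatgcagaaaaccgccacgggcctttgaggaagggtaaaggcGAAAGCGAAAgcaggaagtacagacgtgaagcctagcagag
PSME1: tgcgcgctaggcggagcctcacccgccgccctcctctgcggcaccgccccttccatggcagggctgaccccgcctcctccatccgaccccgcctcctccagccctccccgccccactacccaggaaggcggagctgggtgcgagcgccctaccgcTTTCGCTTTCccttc
PSME2: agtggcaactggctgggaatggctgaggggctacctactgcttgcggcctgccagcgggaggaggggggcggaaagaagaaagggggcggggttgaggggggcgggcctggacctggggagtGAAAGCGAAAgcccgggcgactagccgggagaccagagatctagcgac
PSMG4: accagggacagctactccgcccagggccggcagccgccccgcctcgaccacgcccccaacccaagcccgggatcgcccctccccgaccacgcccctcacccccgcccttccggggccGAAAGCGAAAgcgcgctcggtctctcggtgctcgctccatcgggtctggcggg

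This core occurred in 3 of 5 immunoproteasome windows and in 6 of 40 member windows (15.0%), against 3.65% of 27305 windows of all genes. In the 4 stretches shown, the matched letters were the same, GAAAGCGAAA, read on the opposite strand in PSME1. Those 10 letters, chosen after the matches were seen, were in 30 of all 27305 windows (0.110%) and in no other member with a window. Counted from the start of the gene, the match spans bases -21 to -12 in PSMB10, -28 to -19 in PSME2, -33 to -24 in PSMG4 and 6 to 15 in PSME1. As given below, these 4 genes did not move alike: PSMG4 had the second largest rise of all members, whereas PSMB10 and PSME2 were not called.

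The next pair holds the core of the antioxidant response element, TGANNNNGC on either strand, in capitals. This element is bound by NFE2L1 and NFE2L2, the factors known to raise proteasome genes when the proteasome is short. PSMB5 lies on the minus strand at chr14:23035201-23035370 and PSMG1 on the minus strand at chr21:39183432-39183601, and they are shown because they had the largest rises of the core subunits and of the chaperones. The last stretch, of PSME3 on the plus strand at chr17:42833247-42833416, holds the E-box CACGTG, the preferred site of MYC with MAX, in capitals.
PSMB5: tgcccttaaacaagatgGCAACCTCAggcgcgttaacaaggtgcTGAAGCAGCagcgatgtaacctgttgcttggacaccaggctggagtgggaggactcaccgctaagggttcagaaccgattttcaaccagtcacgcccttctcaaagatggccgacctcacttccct
PSMG1: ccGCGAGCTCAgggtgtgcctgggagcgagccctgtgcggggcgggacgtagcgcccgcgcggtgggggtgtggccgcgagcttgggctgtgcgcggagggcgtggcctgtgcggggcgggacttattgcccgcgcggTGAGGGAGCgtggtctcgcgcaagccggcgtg
PSME3: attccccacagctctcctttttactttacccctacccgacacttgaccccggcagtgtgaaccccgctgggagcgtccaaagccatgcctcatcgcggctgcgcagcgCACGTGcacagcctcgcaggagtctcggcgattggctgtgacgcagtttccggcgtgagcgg

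The core TGANNNNGC was in 25 of 40 member windows (62.5%), against 42.1% of all windows. It was in 4 of 5 immunoproteasome windows, 5 of 5 constitutive beta windows and 4 of 7 alpha windows. Of the cap, 2 of 5 ATPase and 5 of 8 non-ATPase windows held it, as did 4 of 7 chaperones and 1 of 3 other regulators. Its presence thus did not follow the rises given below. PSMG1 held a further match at bases -183 to -175, outside the stretch shown. The E-box was in the windows of PSMB3, PSMD9 and PSME3, which is 3 of 40 members (7.50%) and close to the 7.43% of all windows. A STAT element, TTCNNNGAA, was in 5 of 40 member windows (12.5%) and 7.88% of all windows, and in none of the immunoproteasome windows. The only overlap between these motifs in a member was in PSMA8, where the antioxidant and STAT matches share bases. These matches describe the letters of the windows, and binding was not measured.

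Values are given on 2 scales. The equal-median scale takes the median human probe set as equal on every array and shows each gene relative to the other genes. The per-cell scale sets each array by its ERCC RNAs and so includes the change in total RNA per cell. Across the arrays, the median ERCC intensity was 74.3 to 83.0 in low-Myc, at most 61.6 in mid-Myc and 37.2 to 37.9 in high-Myc cells, and the median human intensity lay between 44.5 and 50.2. On the per-cell scale the ERCC probe sets of 1000 to 4000 intensity, the range of many proteasome genes, kept a median of -0.16 log2 in high-Myc against low-Myc (n = 8), and those over 4000 kept 0.13 (n = 13). The ACTB 3' to 5' ratio was 2.76 to 2.86 in low-Myc, 2.88 to 3.06 in mid-Myc and 3.44 to 3.67 in high-Myc cells, and its part in the results was not tested. The replicates of a group are called biological duplicates in the series' design, and no label ties an array to a day or batch. The mid-Myc samples carry record numbers far from those of the low-Myc and high-Myc samples, which adjoin. Whether they were processed apart is not stated. Such a difference could not be told apart from the mid-Myc level in any comparison with that group.

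B cell markers were bright on all arrays, and the 5 on the array summed to 16920 to 17095 equal-median intensity in low-Myc, 19180 to 19497 in mid-Myc and 12404 to 12437 in high-Myc cells. MS4A1 carried most of that sum (9885 and 9719 in high-Myc cells, against 11942 and 11825 in low-Myc cells). Of the 5 markers, 4 were lower and PAX5 higher in the high-Myc group on the equal-median scale. Their median was -0.89 log2, with CD79B lowest at -1.50 log2. By comparison, 26.0% of all tested genes were lower and 37.7% higher. Per cell, as given below, 3 of the markers were higher, 1 was lower and 1 was not called. The 5 T and NK cell markers summed to 162 to 201 on all arrays, with CD3D and CD8A below the filter. The 5 monocyte markers summed to 1364 to 1366 in low-Myc, 1591 to 1605 in mid-Myc and 541 to 549 in high-Myc cells, with CD14 and FCGR3A below the filter. LYZ carried most of that sum (406 and 391 in high-Myc cells, against 1134 and 1109 in low-Myc cells). All groups are cultures of the same B-cell line, so a mixture of cell types was not part of the design. Bulk RNA does not show which cells of a culture carried these transcripts, and this was not tested.

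MYC read 12155 and 12433 in high-Myc cells, against 9844 and 9567 in low-Myc cells (equal-median intensity). The groups did not overlap, and the difference was 0.34 log2 (SE 0.03, limma adjusted p = 2.68e-07) relative to other genes and 0.96 log2 (SE 0.03) per cell. MYC lies in a range where ERCC differences read small: on the equal-median scale the 13 ERCC probe sets brighter than 4000 had a median difference of -0.49 log2, against -1.18 log2 for the 8 at 1000 to 4000. Whether this shaped the MYC difference was not tested. MS4A1 (mean intensity 11519) and the ubiquitin gene UBB (10012), given below, lie in that range too. In mid-Myc cells MYC read 10289 and 10439, and that difference from low-Myc (0.09 log2, limma adjusted p = 0.0339) changed sign under other scalings of the arrays.

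After 24 hours, the constitutive core, the cap and the chaperones rose relative to the other genes of the cell, while the immunoproteasome genes did not rise with them. Of the 44 tested members, 39 were higher and 2 lower in high-Myc cells than in the low-Myc group on the equal-median scale, and 3 were not called. Of all tested genes, 37.7% were higher and 26.0% lower. The median change of the members was 0.72 log2 (1.64-fold), against 0.05 log2 over all tested genes. The 2 groups' arrays did not overlap for any of the 44 members, which held for 79.9% of all tested genes.

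Per cell, all 44 tested members were higher in high-Myc cells than in the low-Myc group, where 91.0% of all tested genes were higher and 2.47% lower. Their median change was 1.71 log2 (3.27-fold), against 0.98 log2 (1.97-fold) over all tested genes. The per-cell change of a member exceeded its equal-median change by 0.82 to 1.14 log2.

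**Figure D1:**
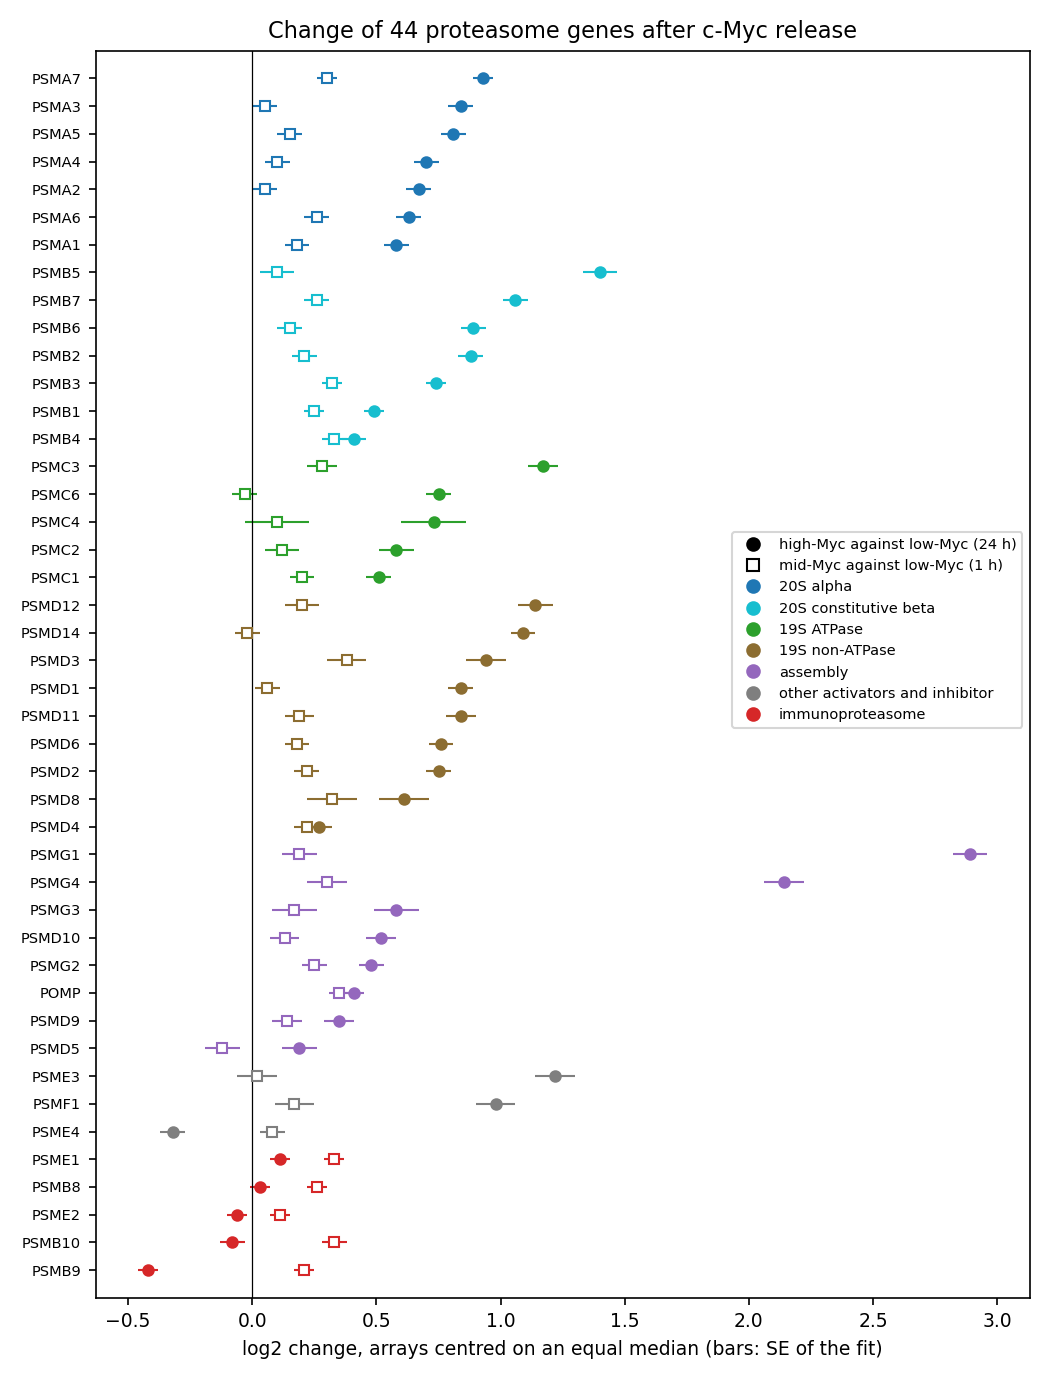
Log2 change of the 44 tested proteasome genes on the equal-median scale, grouped by class, with filled circles for high-Myc against low-Myc and open squares for mid-Myc against low-Myc (bars, SE of the limma fit, 2 arrays a group). At 24 hours the core, cap and chaperone genes lie between 0.19 and 2.89, and the 5 immunoproteasome genes between -0.42 and 0.11.

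All 14 tested constitutive core genes rose at 24 hours, by 0.41 to 1.40 log2 with a median of 0.78. The beta genes had a median of 0.88 and the alpha genes of 0.70. PSMB5, which carries the chymotrypsin-like site of the core, had the largest rise. It read 1092 and 1212 equal-median intensity in high-Myc cells, against 449 and 424 in low-Myc cells. Both high-Myc arrays lay far above both low-Myc arrays, and the difference was 1.40 log2 (SE 0.07, limma adjusted p = 3.01e-10) relative to other genes and 2.53 log2 per cell. The 5 probe sets of PSMB5 gave 1.22 to 1.40 log2.

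PSMB7, the subunit with the trypsin-like site, read 2888 and 3087 in high-Myc cells, against 1468 and 1399 in low-Myc cells, a rise of 1.06 log2 (SE 0.05, limma adjusted p = 2.96e-10). PSMB6, with the caspase-like site, read 1681 and 1623 in high-Myc cells, against 889 and 900 in low-Myc cells, a rise of 0.89 log2 (SE 0.05). The groups were apart for both, so all 3 genes for catalytic subunits of the constitutive core were among the largest rises of the beta genes. Of the beta genes for subunits without an active site, PSMB2 rose by 0.88, PSMB3 by 0.74, PSMB1 by 0.49 and PSMB4 by 0.41 log2.

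The alpha genes formed a narrow group at 24 hours, between 0.58 and 0.93 log2. PSMA7 read 2455 and 2479 equal-median intensity in high-Myc cells, against 1296 and 1286 in low-Myc cells, a rise of 0.93 log2 (SE 0.04, limma adjusted p = 3.57e-10). PSMA3 and PSMA5 rose by 0.84 and 0.81 log2. The smallest rises were those of PSMA2 (0.67), PSMA6 (0.63) and PSMA1 (0.58 log2). A second, dimmer probe set of PSMA1 gave -0.12 log2.

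All 14 tested cap genes rose at 24 hours, by 0.27 to 1.17 log2 with a median of 0.76. Among the 5 ATPase genes, PSMC3 read 1362 and 1405 equal-median intensity in high-Myc cells, against 657 and 576 in low-Myc cells, a rise of 1.17 log2 (SE 0.06, limma adjusted p = 1.59e-09). The groups were well apart. PSMC6 rose by 0.75, PSMC4 by 0.73, PSMC2 by 0.58 and PSMC1 by 0.51 log2. For PSMC6 a second probe set below the filter (8.94 intensity) gave -0.83 log2, and for PSMC2 one of the other 2 gave -0.62 log2 at a far lower intensity.

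The 9 non-ATPase genes of the cap had a median rise of 0.84 log2. PSMD12, a lid subunit, read 866 and 965 equal-median intensity in high-Myc cells, against 431 and 399 in low-Myc cells, a rise of 1.14 log2 (SE 0.07, limma adjusted p = 3.39e-09). PSMD14, the deubiquitinase that removes ubiquitin chains at the cap, read 1601 and 1542 in high-Myc cells, against 750 and 725 in low-Myc cells, a rise of 1.09 log2 (SE 0.05). PSMD3, another lid subunit, rose by 0.94 log2. At the other end stood PSMD4, a ubiquitin receptor, which read 1146 and 1219 in high-Myc cells, against 1001 and 962 in low-Myc cells, a rise of 0.27 log2 (SE 0.05, limma adjusted p = 0.000521). The high-Myc arrays of PSMD4 still lay above the low-Myc arrays. PSMD2, a scaffold of the base, rose by 0.75 log2 and the lid gene PSMD8 by 0.61 log2.

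The chaperones held both the largest and some of the smallest rises of the core, cap and chaperone genes. All 8 rose at 24 hours, by 0.19 to 2.89 log2 with a median of 0.50. PSMG1, which with PSMG2 starts the ring of alpha subunits, read 1623 and 1551 equal-median intensity in high-Myc cells, against 222 and 207 in low-Myc cells. Its difference was 2.89 log2 (SE 0.07, limma adjusted p = 1.31e-12) and 4.03 log2 per cell, the largest of the 44 tested members on both scales. PSMG2, its partner in the heterodimer, read 2064 and 1894 in high-Myc cells, against 1393 and 1433 in low-Myc cells, a rise of 0.48 log2 (SE 0.05). The groups were apart for both genes, and the rise of PSMG1 was the larger by far.

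The second pair of chaperones was uneven in the same way. PSMG4 read 712 and 624 in high-Myc cells, against 152 and 151 in low-Myc cells, a rise of 2.14 log2 (SE 0.08, limma adjusted p = 2.39e-11). Of its other 5 probe sets, the 4 above the filter gave 0.78 to 2.06 log2. PSMG3, with which PSMG4 pairs, read 191 and 166 in high-Myc cells, against 120 and 118 in low-Myc cells, a rise of 0.58 log2 (SE 0.09). Thus 1 member of each heterodimer had a rise of over 2 log2 and the other one under 0.6 log2, although PSMG1, PSMG2 and PSMG3 are each read by a single probe set.

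POMP, which drives the joining of 2 core precursors, read 2342 and 2340 in high-Myc cells, against 1802 and 1733 in low-Myc cells, a rise of 0.41 log2 (SE 0.04). Its other 2 probe sets gave 0.36 log2 and, for the dimmest, -0.22 log2. The chaperones of the cap base rose by 0.52 (PSMD10, also called gankyrin), 0.35 (PSMD9) and 0.19 log2 (PSMD5, limma adjusted p = 0.0340). The dimmer second probe set of PSMD9 gave -0.28 log2. The rise of PSMD5 was not present when arrays were scaled by quantiles or centred on the tested genes (-0.01 log2 for each).

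The remaining regulators moved in both directions. PSME3, the nuclear activator of the core, read 290 and 290 equal-median intensity in high-Myc cells, against 128 and 121 in low-Myc cells, a rise of 1.22 log2 (SE 0.08, limma adjusted p = 4.93e-09). Its other 2 probe sets gave 0.65 and 0.62 log2. PSMF1, known as an inhibitor of the core in vitro, read 687 and 743 in high-Myc cells, against 389 and 337 in low-Myc cells, a rise of 0.98 log2 (SE 0.08), and its 5 other probe sets gave 0.52 to 0.76 log2. PSME4, an activator known for acetylated histones, read 1038 and 1044 in high-Myc cells, against 1341 and 1260 in low-Myc cells, a fall by 0.32 log2 (SE 0.05, limma adjusted p = 0.000107). Its groups did not overlap, but the direction belonged to the brightest probe set: of the other 5, 1 gave -0.26 log2 and 4 gave 0.20 to 0.38 log2.

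The immunoproteasome genes did not share the rise. On the equal-median scale 1 of 5 was higher in high-Myc cells than in the low-Myc group, 1 was lower and 3 were not called, and their median was -0.06 log2. The median of these proteasome genes was -0.36 log2 with quantile scaling, -0.27 log2 with centring on the tested genes, and -0.20 log2 with cyclic loess or as deposited. PSMB8, the inducible form of PSMB5, read 2582 and 2629 in high-Myc cells, against 2576 and 2535 in low-Myc cells. These values are nearly the same, with a difference of 0.03 log2 (95% interval -0.06 to 0.12, limma adjusted p = 0.581). PSMB10, the inducible form of PSMB7, read 1862 and 1927 in high-Myc cells, against 2035 and 1970 in low-Myc cells, a difference of -0.08 log2 (95% interval -0.18 to 0.02, limma adjusted p = 0.157).

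PSMB9, the inducible form of PSMB6, fell. It read 2040 and 1993 equal-median intensity in high-Myc cells, against 2761 and 2637 in low-Myc cells, and the difference was -0.42 log2 (SE 0.04, limma adjusted p = 1.12e-06). Both high-Myc arrays lay below both low-Myc arrays, and the other 2 probe sets of PSMB9 gave -0.44 and -0.28 log2. Of the activator pair, PSME2 read 3677 and 3646 in high-Myc cells, against 3781 and 3865 in low-Myc cells, a difference of -0.06 log2 (limma adjusted p = 0.215). PSME1 read 3058 and 3004 in high-Myc cells, against 2848 and 2768 in low-Myc cells, and was called higher by 0.11 log2 (limma adjusted p = 0.0272). That call did not hold with arrays scaled by quantiles (-0.19), by cyclic loess (-0.03), centred on the tested genes (-0.09) or as deposited (-0.03 log2).

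Per cell all 5 immunoproteasome genes rose, by 0.48 log2 (PSMB9) to 0.97 log2 (PSME1), with a median of 0.87 against 1.75 for the constitutive core genes. The median over all tested genes, 0.98 log2, lay above each of the 5. Among the other 39 tested members, only PSME4 rose by less than that per cell (0.74 log2), and the next was PSMD5 at 1.34 log2.

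**Figure D2:**
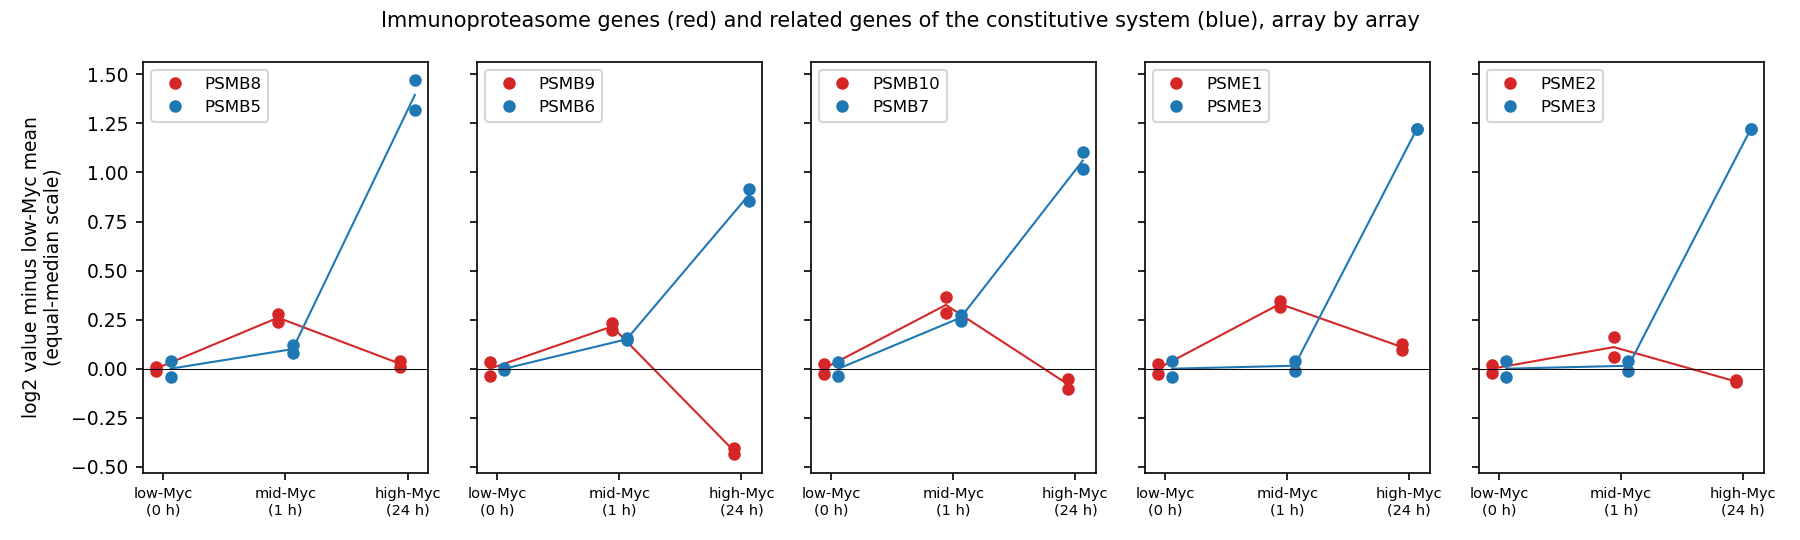
Log2 value of each array minus the mean of the low-Myc arrays (equal-median scale) for the 5 immunoproteasome genes (red) and the related genes of the constitutive system (blue), in low-Myc, mid-Myc and high-Myc cells, with points for arrays and lines through the group means. Red lies above blue by 0.06 to 0.31 log2 at 1 hour, and below it by 1.11 to 1.37 log2 at 24 hours.

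The transcripts of matching catalytic subunits were compared within each array, since the difference of 2 genes on 1 array does not depend on a factor common to that array. Relative to the low-Myc mean, PSMB8 minus PSMB5 stood at -1.31 and -1.43 log2 on the high-Myc arrays, against -0.03 and 0.03 on the low-Myc arrays. PSMB9 minus PSMB6 stood at -1.31 and -1.30 on the high-Myc arrays, against 0.04 and -0.04 on the low-Myc arrays. PSMB10 minus PSMB7 stood at -1.12 and -1.16 on the high-Myc arrays, against -0.01 and 0.01 on the low-Myc arrays. The inducible subunit thus lost 2.59-fold, 2.47-fold and 2.20-fold to its constitutive counterpart, with no overlap of arrays in any pair.

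Against the brightest PSME3 probe set, the activator genes lost 2.16-fold (PSME1) and 2.43-fold (PSME2), or 1.11 and 1.28 on the log2 scale. These 2 sizes depend on the probe set: of the catalytic subunit pairs and activator pairs averaged over all probe sets of a gene, PSME1 minus PSME3 was -0.76 log2 and PSME2 minus PSME3 -0.89 log2. The size for PSMB10 minus PSMB7 depends on it too. Dim probe sets of PSMB7 (49.2 and 38.4 intensity) gave -0.13 and 0.11 log2 in high-Myc against low-Myc, and its brighter ones 1.02 to 1.12 log2. Each of these 5 pairs gave an exact permutation p of 0.333, two-sided, the smallest that 2 arrays against 2 allow. Per cell the 5 differences were -1.16 to -1.62 log2. The probe sets of a pair have different responses to their targets, so these are changes of the difference and give no ratio of the 2 transcripts.

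The immunoproteasome genes are read by bright probe sets, with mean intensities of 2119 to 3867. Between 2000 and 4000 intensity, 292 tested genes had a median equal-median change of 0.14 log2 in high-Myc against low-Myc, with 52.4% higher and 38.0% lower. The 6 other members in that range (POMP, PSMA1, PSMA4, PSMA6, PSMB1 and PSMB3) changed by 0.41 to 0.74 log2, all of them higher than each of the 5 immunoproteasome genes. The gap between the classes was therefore present among genes of like brightness.

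**Figure D3:**
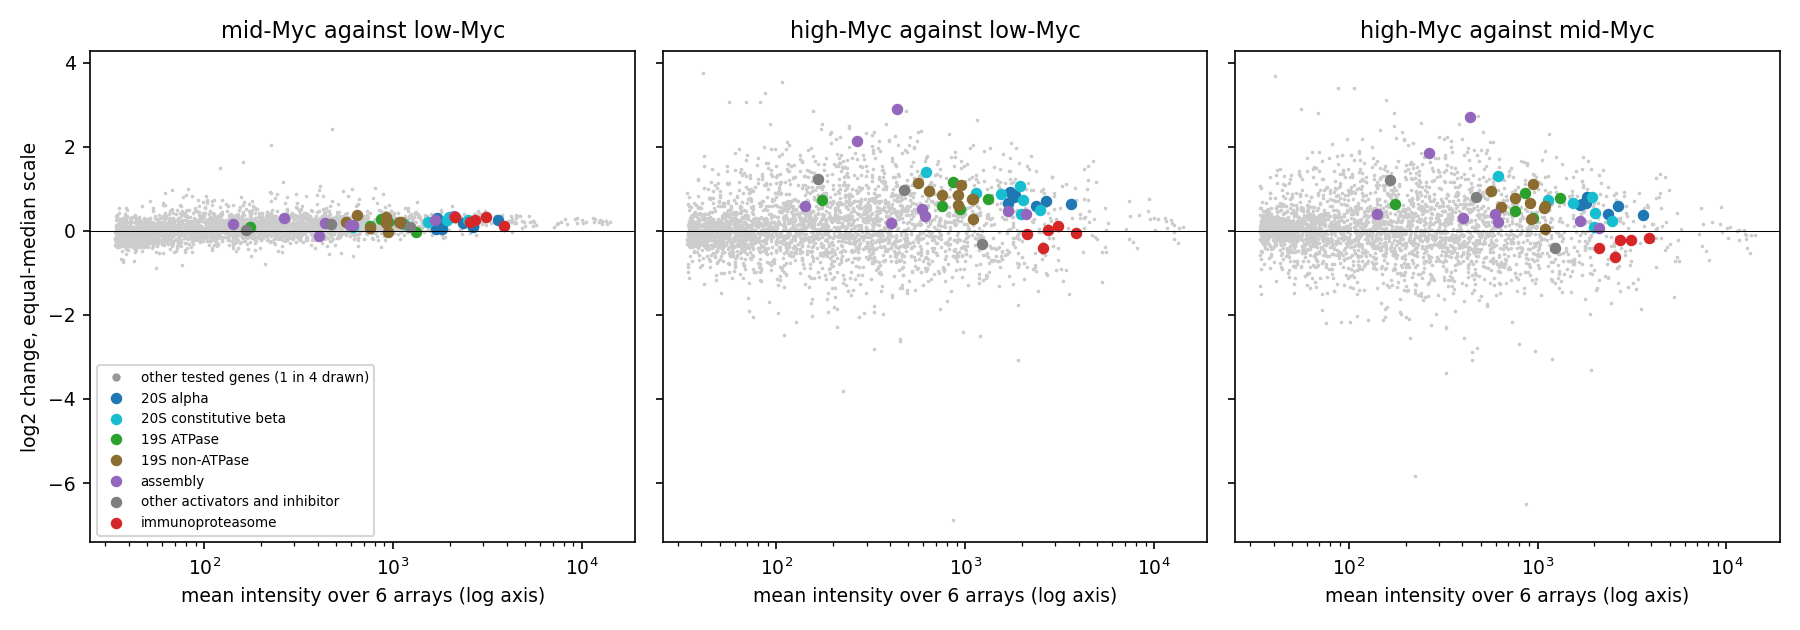
Equal-median log2 change against mean intensity (log axis) for each comparison, with proteasome genes coloured by class over 1 in 4 of the other tested genes in grey. In both comparisons with high-Myc cells the immunoproteasome genes lie under the core genes of the same brightness, and in mid-Myc against low-Myc all classes lie within -0.12 to 0.38.

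After 1 hour the changes were small and the classes had not separated. On the equal-median scale 26 of the 44 tested members were higher in mid-Myc than in low-Myc cells and none lower, where 25.7% of all tested genes were higher and 3.39% lower. The median of the members was 0.19 log2, against 0.09 over all tested genes. Genes of 2000 to 4000 intensity had a median of 0.23 log2 with 76.4% higher, so bright genes as a whole stood above the median at 1 hour. The count of 26 was not stable: it was 1 with quantile scaling, with 6 lower, and 8 on the values as deposited, with 3 lower. It was also 15 without the second low-Myc array and 16 without the second mid-Myc array.

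Among the classes at 1 hour, 4 of 5 immunoproteasome genes were higher (median 0.26 log2), as were 10 of 14 core genes (0.20), 9 of 14 cap genes (0.20), 3 of 8 chaperones (0.18) and 0 of the 3 other regulators. PSMB10 read 2443 and 2577 in mid-Myc cells, against 2035 and 1970 in low-Myc cells, a difference of 0.33 log2 (SE 0.05, limma adjusted p = 0.000232). PSME1 read 3565 and 3499 in mid-Myc cells, against 2848 and 2768 in low-Myc cells, also 0.33 log2. PSMB8 and PSMB9 differed by 0.26 and 0.21 log2, and PSME2 by 0.11 log2 (limma adjusted p = 0.0613). PSMB9 stood at -0.00 log2 when all its probe sets were averaged and at -0.01 log2 with quantile scaling.

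PSMG1, first at 24 hours, read 231 and 258 in mid-Myc cells, against 222 and 207 in low-Myc cells, a difference of 0.19 log2 (SE 0.07, limma adjusted p = 0.0666). PSMG4 read 185 and 186 in mid-Myc cells, against 152 and 151 in low-Myc cells, a rise of 0.30 log2 (limma adjusted p = 0.0101). PSMB5 differed by 0.10 log2 (limma adjusted p = 0.279) and PSME3 by 0.02 log2 (limma adjusted p = 0.888). Between 1 and 24 hours the same 4 genes rose by 2.70, 1.84, 1.30 and 1.20 log2. The largest value at 1 hour was that of PSMD3, 0.38 log2 (SE 0.08), and POMP followed at 0.35 log2 (SE 0.04).

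Per cell, 42 of 44 tested members were higher in mid-Myc than in low-Myc cells, where 62.7% of all tested genes were higher and 0.672% lower. The median of the members was 0.39 log2, against 0.30 over all tested genes. PSMC4 (0.33 log2, limma adjusted p = 0.0661) and PSMD5 (0.12 log2, limma adjusted p = 0.187) were not called. The count was 41 to 43 under the other settings and with each array left out.

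Between 1 and 24 hours the classes went apart. In high-Myc against mid-Myc, 35 of the 44 tested members were higher and 6 lower on the equal-median scale, where 33.3% of all tested genes were higher and 30.9% lower. The 6 were all 5 immunoproteasome genes and PSME4, whose other probe sets again disagreed. PSMB9 fell most, to 2040 and 1993 in high-Myc cells, against 3079 and 3166 in mid-Myc cells (-0.63 log2, SE 0.04, limma adjusted p = 1.62e-08). PSMB10 fell by 0.41, PSMB8 by 0.23, PSME1 by 0.22 and PSME2 by 0.17 log2.

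Over the same interval the constitutive core genes had a median of 0.63 log2 with 13 of 14 higher. The 3 members not called were PSMB4 (0.08), POMP (0.06) and PSMD4 (0.05 log2). At 1 hour these 3 had been higher than in the low-Myc group by 0.33, 0.35 and 0.22 log2. Per cell all 44 were higher in high-Myc than in mid-Myc cells, where 81.8% of all tested genes were higher and 6.48% lower. PSMB9 had the smallest difference per cell, 0.14 log2 (SE 0.03, limma adjusted p = 0.00381), and PSMG1 the largest, 3.61 log2. The 3 comparisons share arrays and are no independent tests of each other.

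**Figure D4:**
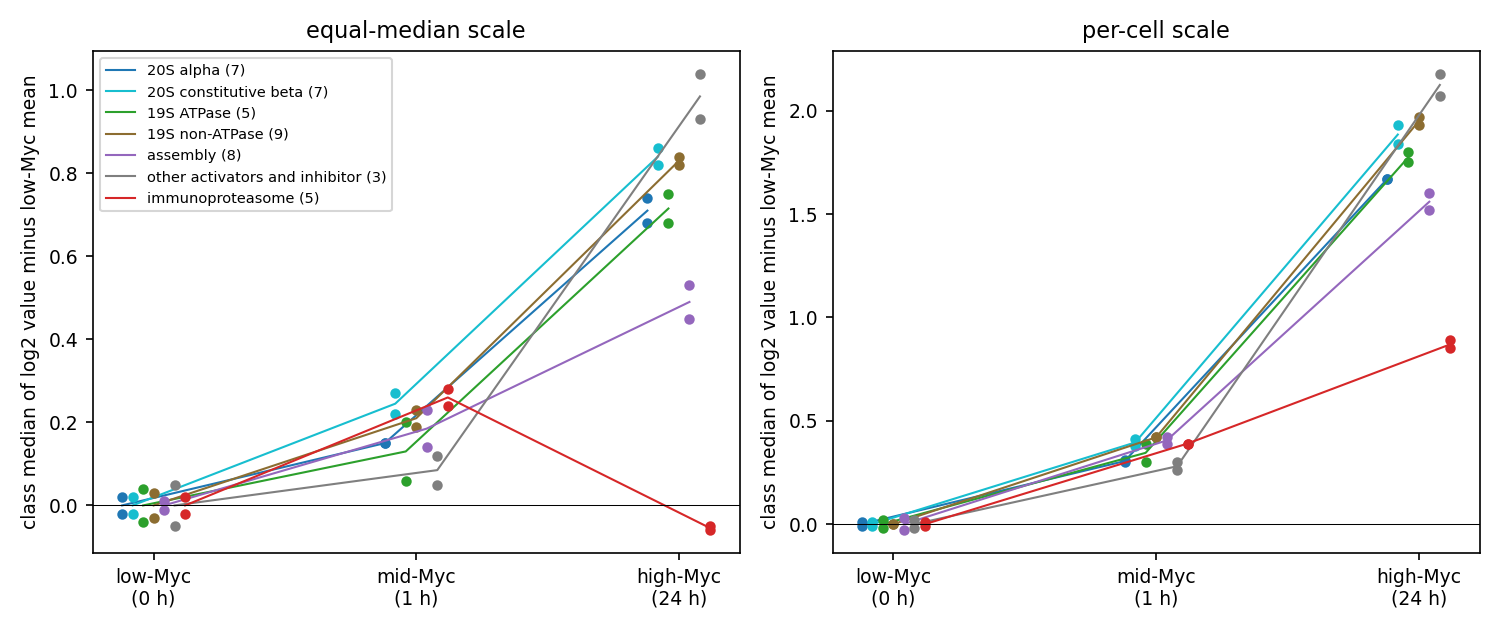
Class median of the log2 value of each array minus the low-Myc mean, in low-Myc, mid-Myc and high-Myc cells on both scales, with points for arrays, lines through the group means and the number of tested genes in brackets. On the equal-median scale the immunoproteasome median is 0.24 and 0.28 at 1 hour and -0.05 and -0.06 at 24 hours, while all other classes are at 0.45 or above at 24 hours.

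The neighbours of the proteasome in its pathway were read from lists. Of 10 proteins that work at the 19S cap under other names, 8 were higher and 1 lower in high-Myc cells than in the low-Myc group on the equal-median scale (median 0.71 log2). They included UCHL5 (1.37 log2) and USP14 (1.13 log2), the 2 other deubiquitinases of the cap, ECPAS (1.06 log2), which tethers the core to the cap, and PAAF1 (0.89 log2), a chaperone of the base. AKIRIN2, which brings proteasomes into the nucleus, was lower by 0.19 log2 (limma adjusted p = 0.0315). Of the 10 tested genes that deliver substrates, 6 were higher and 1 lower, with FAF1 at 0.97 log2, UBQLN4 at 0.71 log2, RAD23B at 0.66 log2 and UFD1 at 0.54 log2. Beside both lists, 37.7% of all tested genes were higher and 26.0% lower on that scale. Per cell all 10 genes of each list were higher, where 91.0% of all tested genes were. Of the 3 tested genes for ubiquitin and its activation, none was higher and 2 were lower, UBA6 (-0.40 log2) and UBB (-0.12 log2), where 26.0% of all tested genes were lower. Per cell all 3 were higher (0.52 to 1.22 log2), as were 91.0% of all genes.

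Of 7 tested genes for the transcriptional control of the proteasome, 3 were higher and 2 lower at 24 hours on the equal-median scale, near the 37.7% and 26.0% of all tested genes. Per cell 6 of the 7 were higher, where 91.0% of all genes were. NFE2L3, a relative of NFE2L1, rose by 1.34 log2 (SE 0.09) and NFE2L2 by 0.53 log2 (SE 0.05). NFE2L1, the main known driver of proteasome genes when the proteasome is short, differed by 0.14 log2 (limma adjusted p = 0.0836). MAFF, a small partner of these factors, was lower by 0.47 log2 and MAFG by 0.19 log2. At 1 hour NFE2L2 and MAFF were higher by 0.84 and 0.92 log2.

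Peptide loading and the control of immunoproteasome genes were read from 2 further lists. Of the 11 tested genes of class I peptide loading, none was higher and 8 were lower in high-Myc cells than in the low-Myc group on the equal-median scale (median -0.30 log2), where 26.0% of all tested genes were lower. HLA-E fell by 1.33 log2 (SE 0.05, limma adjusted p = 3.10e-11), ERAP2, which trims peptides, by 0.87 log2, TAP2, of the peptide transporter, by 0.69 log2 and HLA-C by 0.44 log2. At 1 hour 9 of the 11 were higher (median 0.21 log2). At that time 25.7% of all tested genes were higher, and 64.1% of those at 1000 to 4000 intensity (median 0.20 log2). Per cell 10 of 11 were higher at 24 hours (median 0.48 log2), close to the 91.0% of all tested genes, and HLA-E was lower by 0.40 log2.

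Of 8 tested genes that induce immunoproteasome genes, 1 was higher (NFKB1, 0.17 log2), 6 were lower and IFNGR2 was not called at 24 hours on the equal-median scale (median -0.61 log2). Per cell 7 were higher and 1 lower (median 0.49 log2), where 91.0% of all tested genes were higher and 2.47% lower. NLRC5, the activator of class I genes, fell by 1.20 log2 (SE 0.05, limma adjusted p = 1.91e-10). JAK2 fell by 0.92, IFNGR1 by 0.73 and IRF1 by 0.64 log2, all 3 on the path from interferon gamma to these promoters. Per cell NLRC5 was lower by 0.16 log2, while IRF1 was higher by 0.50 and JAK2 by 0.22 log2. The summed B cell and monocyte markers, given above, were also lower in high-Myc cells on the equal-median scale. Per cell 3 of the 5 B cell markers were higher, 1 was lower and 1 was not called (median 0.25 log2). MS4A1, which carried most of the B cell sum, was higher (mean intensity 12903, against 10279 in low-Myc cells). CD79B read 1676, against 2506 in low-Myc cells. LYZ, which carried most of the monocyte sum, read 636 per cell, against 824 in low-Myc cells. The part of the B cell and monocyte markers in the values of the inducer list was not tested.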

How the data were processed

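Per the submitters' processing notes, MAS5 was the tool with which the authors turned each array into probe set intensities. The sources used here give neither its version nor its scaling target. The deposited intensities are linear, 1 column for each of 6 arrays, and carry no detection calls. The table has 49495 probe sets, including 49293 human and 100 ERCC ones. Genes were named from the platform annotation through the 45278 human probe sets with 1 symbol, while 1333 with several and 2682 with none were not named.

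Values were taken as log2. For the equal-median scale, the median log2 value of the human probe sets was subtracted from every value of that array. For the per-cell scale, ERCC values of an array were set against their 6-array means, a robust loess fit of degree 1 and span 0.7 was drawn through them, and its height was subtracted from every probe set. Each gene was represented by its brightest probe set, and 12198 genes whose mean lay above the 40th percentile (33.8) were tested with limma 3.58.1 in R 4.3.3. All 6 arrays entered 1 fit that modelled the variance as a trend. Tests were two-sided, p-values were adjusted by Benjamini-Hochberg over all tested genes, and the threshold was 0.05. SE values come from that fit. The number of arrays limits the precision.

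The members, their classes, the gene lists and the tests were chosen with earlier results of these data known. Named genes were MYC, every immunoproteasome, assembly, other activator and inhibitor gene, the 3 largest and 3 smallest changes in the other classes, members not called, called oppositely on the 2 scales or not tested, and up to 4 called genes per list. Other members that are given were chosen after their values were seen. Promoter windows came from RefSeq (GRCh38.p14). The fit was tested on simulated data. Alternatives were other scalings, filters and probe set choices, a pseudocount of 16, no trend in the variance, a block for the replicate number, fits of 4 arrays, and fits that left out 1 array.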

Additional observations from a re-analysis of the deposited data

How the results depend on the processing

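For the proteasome genes, counts per comparison are those of members higher. On the equal-median scale, 35 to 39 were higher and 1 to 6 lower in high-Myc against low-Myc under 12 alternatives, and 32 to 37 higher with 5 to 6 lower in high-Myc against mid-Myc. Leaving out each array gave 37 to 39 and 33 to 35. In mid-Myc against low-Myc the 26 became 14 without the variance trend, 1 (6 lower) with quantile scaling, 5 (4 lower) with cyclic loess, 8 (3 lower) as deposited and 11 (2 lower) with centring on tested genes, and 15 to 26 with an array left out. Per cell, counts stayed at 44, 41 to 43 and 44. With the replicate number as a block, proteasome genes higher were 39, 25 and 35 on the equal-median scale and 44, 42 and 44 per cell, in the order high-Myc against low-Myc, mid-Myc against low-Myc and high-Myc against mid-Myc. Numbers did not pair arrays, with correlations of same-numbered deviations of -0.01 to 0.02 over both scales. Among all genes called in high-Myc against low-Myc, 59.2% were higher, and 47.2% with quantile scaling, 46.9% as deposited and 41.5% with centring on tested genes, and in mid-Myc against low-Myc 88.3%, and 44.4%, 43.2% and 58.6%, with 50.5% for cyclic loess. The median of all tested genes in high-Myc against low-Myc was 0.05, and -0.09 as deposited and -0.15 with centring on tested genes. The core median exceeded the immunoproteasome median in high-Myc against low-Myc by 0.84 log2, and by 0.75 to 0.88 over all settings.

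Signs changed on the equal-median scale as follows, among the recomputed values that were called under the reported or the other setting. In high-Myc against low-Myc, PSMB8 was -0.19 averaged over probe sets, -0.25 with quantile scaling, -0.11 with cyclic loess, -0.11 as deposited and -0.18 with centring on tested genes. PSME1 was -0.19, -0.03, -0.03 and -0.09 under the last 4, PSMD5 -0.01 with quantile scaling and centred, PSMC6 -0.04 averaged over probe sets, and PSME4 0.10 averaged and 0.38 with probe sets free of shared probes. In mid-Myc against low-Myc, PSMB8 was -0.08 averaged, PSMB9 -0.00 averaged and -0.01 with quantile scaling, PSMB6 -0.04 with quantile scaling and -0.03 with cyclic loess, and MYC -0.15, -0.16, -0.06 and -0.02 under the same 4 scalings. PSMB5 (-0.05) and PSME2 (-0.04) also turned negative as deposited, called in neither. In high-Myc against mid-Myc, POMP was -0.18 averaged and PSME4 0.12 with probe sets free of shared probes. Of the catalytic subunit pairs and activator pairs in mid-Myc against low-Myc, PSMB8 minus PSMB5 was -0.13 averaged, PSMB9 minus PSMB6 -0.01 per cell and -0.16 averaged, and PSME2 minus PSME3 -0.03 per cell and -0.03 with quantile scaling. Averaging weighs in dim probe sets, and the other causes were not tested.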
